A study of Mus musculus with 12 samples.

Results

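T cell receptor variable (V) segments were followed in RNA-Seq libraries of CD4+ T cells from 12 mice. The members were the genes of the deposited table whose symbol starts with Trav (alpha chain) or Trbv (beta chain), 125 of 35275 genes in all. Of these, 103 were Trav segments, on chromosome 14 between 52427928 and 53876752, and 22 Trbv segments, on chromosome 6 between 40891229 and 41558452 (GRCm38). The mice were females, 9 weeks old by the methods and 9 to 12 weeks by the study's description of the RNA-Seq samples, and fell into 4 groups of 3: untreated B6 (C57BL/6 in the labels and C57BL/6J in the methods, replicates 3, 4 and 5), B6 given anti-CD45RB (replicates 1, 3 and 5), untreated SLE123 (replicates 1 to 3) and SLE123 given anti-CD45RB (replicates 1 to 3). Anti-CD45RB is the monoclonal antibody MB23G2 against a cell surface phosphatase isoform, given at 100 µg by intraperitoneal injection 5 times, the last on day 7. It is used to induce tolerance to transplants, and the study asked how it acts on CD4+ T cells of a strain in which that tolerance fails. SLE123 is a lupus-prone B6 congenic that carries Sle1, Sle2 and Sle3, 3 intervals of the NZM2410 strain, none of which lies on the chromosomes of the Trav or Trbv locus. The labels and methods name no other allele or agent for these groups. The cells were enriched by removing other cells magnetically rather than sorted on the receptor, and the methods describe a further split by CD25 that the sample names do not record. Each library is labelled as a separate sample of its group and was taken as 1 mouse.

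A T cell receptor chain is assembled in the thymus when recombination joins 1 of many V segments to a joining segment (and, for the beta chain, a diversity segment), and the V segment then encodes most of the part that contacts peptide and MHC. A mature T cell then transcribes mainly the V segment it has joined, spliced to the constant gene Trac or Trbc, so that in a population of T cells the RNA of each V segment follows how many cells use it and how much receptor RNA they make. In bulk RNA, fewer cells using a segment and less RNA per cell cannot be told apart. Usage is given here as the share of a mouse's summed Trav or summed Trbv FPKM (fragments per kilobase of transcript, scaled to the size of the library) that a segment takes, which sets aside the level of receptor RNA as a whole. The C57BL/6 Trav locus holds duplicated blocks, and a d or n in a symbol marks a segment of a duplicated block. Segments with dv in the symbol can also be joined in the delta chain of gamma delta T cells.

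The libraries held 13563646 to 23642846 fragments assigned to genes (median 16828675), of which 2757 to 4846 lay on Trav and 5910 to 8864 on Trbv segments, and 3 fragments on a transcript of 350 bases corresponded to 0.363 to 0.632 FPKM. Cd4 was at 236.9 to 327.2 FPKM and Cd8a at no more than 1.918 FPKM, in keeping with the label CD4+ T cells. Cd8b1, the other CD8 chain, was at 10.9 to 17.4 FPKM in B6 and 3.88 to 7.33 FPKM in SLE123 mice and was called lower in SLE123 in both states (log2 fold changes of -1.11 and -1.15, limma adjusted p = 0.000759 and 0.000909). RNA of other cells was present and differed between groups. The summed FPKM of 6 B cell markers was 6.106 to 7.303 in untreated B6, 25.02 to 33.45 in treated B6, 61.98 to 223.2 in untreated SLE123 and 36.75 to 56.47 in treated SLE123, and the highest value, in untreated SLE123 replicate 3, went with the highest Adgre1 (3.73 FPKM), a macrophage marker. Liver transcripts such as Alb were at 24.7 to 30.7 FPKM in the 6 B6 libraries and in treated SLE123 replicate 1 (28.2 FPKM), and at or near 0 in the other 5. None of these marker lists holds a V segment, and their part in the V segment results was not tested.

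Of the 125 segments, 109 had a value above 0 in at least 1 library and 16, all Trav, were listed at 0 in all 12. A further 15 segments (14 Trav and Trbv10) were above 0 with a mean under 0.5 FPKM, and the remaining 94 (73 Trav and 21 Trbv) passed this filter on the mean over the 12 mice and were tested. The 3 classes differed in how far their transcripts could be told from other V segments. Each annotated transcript was cut into every window of 50 bases, and a window was called unique when no other V transcript held it. All 16 segments listed at 0 had no unique window, as did 12 of the 15 with low values, against 3 of the 94 tested (median 63.1% of windows unique). With windows of 100 bases these counts were 16, 11 and 3. Trbv segments had 98.8% to 100% unique windows, so the sharing was a property of the Trav copies. A value of 0 for a Trav copy was therefore not read as absence of its RNA.

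**Figure D1:**
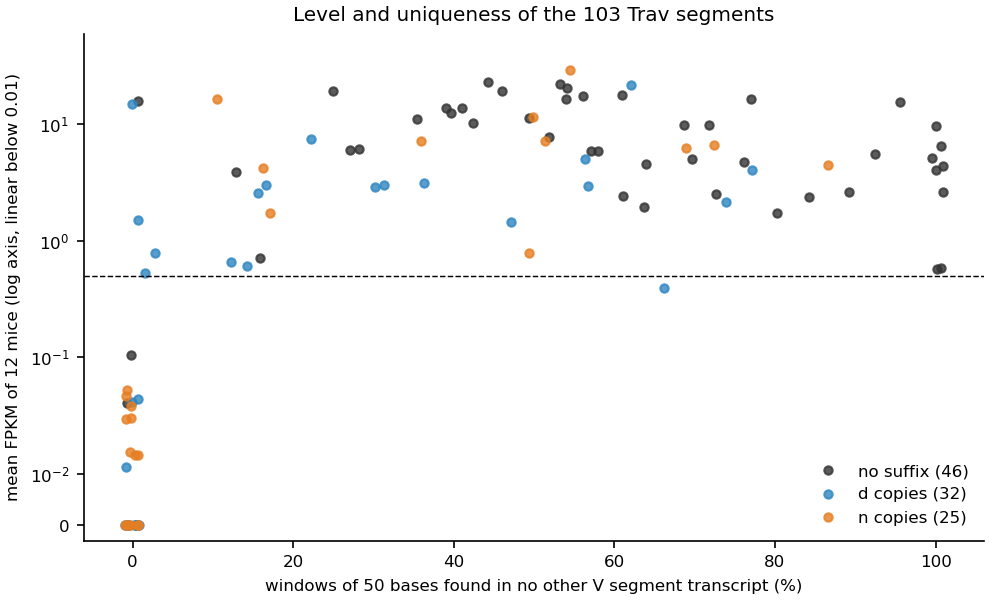
Mean FPKM over the 12 mice (vertical axis, symmetric log scale that is linear near 0) against the percent of 50-base windows found in no other V segment transcript (horizontal axis), 1 point per Trav segment coloured by copy and shifted sideways by up to 1 percentage point for visibility, with the filter of 0.5 FPKM as a dashed line. The 16 segments listed at 0 all lie at 0% unique windows, and the 3 tested segments at 0% are Trav14d-1, Trav7-2 and Trav12d-1.

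The copies of 2 families show what the counting had to separate. Shown are the last 30 bases of the coding strand of each segment, the end that recombination joins, from GENCODE transcripts on GRCm38, with the bases that differ between copies in capitals. They lie at chr14:53554529-53554558, chr14:52856137-52856166 and chr14:53167149-53167178 for the Trav14 set and at chr14:53591485-53591514, chr14:52892589-52892618 and chr14:53203525-53203554 for the Trav9 set.
Trav14-1: actcagcCacctacttctgtgcagcaagtg
Trav14d-1: actcagcTacctacttctgtgcagcaagtg
Trav14n-1: actcagcTacctacttctgtgcagcaagtg
Trav9-2: actcTgctgtgtacttctgtgttTtgagcg
Trav9d-2: actcGgctgtgtacttctgtgttCtgagcg
Trav9n-2: actcGgctgtgtacttctgtgttCtgagcg
Trav14d-1 and Trav14n-1 had the same letters here and shared every 50-base window, yet the table lists Trav14d-1 at a mean of 14.8 FPKM and Trav14n-1 at 0 in every mouse. Trav9d-2 and Trav9n-2, alike in the same way, were both listed at 0, while Trav9-2, with 53.3% unique windows, had a mean of 22.4 FPKM. The row of Trav14d-1 is reported below under its own name, but its fragments could not be told from those of Trav14n-1 by sequence.

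The beta chain repertoire was led by Trbv13-2, a segment of the family long known as Vβ8, in the mean of each of the 4 groups. Its usage was 13.3%, 13.5% and 15.5% in untreated B6, 14.9%, 14.5% and 14.1% in treated B6, 14.6%, 14.9% and 13.5% in untreated SLE123 and 14.2%, 14.4% and 14.9% in treated SLE123. These values overlapped between all groups, with a mean of 14.4% over the 12 mice and a coefficient of variation of 4.69%. Trbv3 came next in the mean (10.96%) and varied more, from 9.24% to 15.8%. Trbv1 (8.34%), Trbv13-1 (7.69%), Trbv16 (6.40%), Trbv2 (6.38%), Trbv31 (5.59%) and Trbv5 (5.54%) followed, and these 8 segments made up 65.3% of the beta chain RNA. For Trbv16 and Trbv2, close means over the 12 mice hide an order of group means that differed between the strains. In B6, Trbv16 averaged 7.12% untreated and 6.80% treated, above Trbv2 (5.62% and 5.41%). In SLE123, Trbv16 averaged 5.82% and 5.87%, below Trbv2 (6.99% and 7.49%). Trbv1 averaged 8.42% and 8.62% in B6, above Trbv13-1 (6.83% and 7.07%). In SLE123, Trbv1 averaged 8.20% and 8.12%, against 8.35% and 8.50% for Trbv13-1. There the SDs of Trbv1 were 0.635 and 0.943. Trbv1 lay above Trbv13-1 in untreated replicate 3 (8.94% against 8.46%) and in treated replicate 1 (9.16% against 8.26%). Their order in SLE123 was therefore not resolved. The order of Trbv31 and Trbv5 over all 12 mice, with SDs of 0.815 and 0.742, was not resolved. Trbv31 lay below Trbv5 in each untreated SLE123 mouse (means of 4.51% and 5.84%) and above it in the mean of each other group. In all, 18 Trbv segments had a mean usage of at least 1%.

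The ends of some, not all, of the Trbv segments named in the text are given in the same way. The codon of the conserved cysteine that opens the third complementarity-determining region is in capitals. From the first to the last they lie on chromosome 6 at chr6:41121803-41121832, chr6:41048799-41048828, chr6:40891856-40891885, chr6:41047966-41047995, chr6:41116439-41116468, chr6:41141629-41141658, chr6:41188948-41188977 and chr6:41227964-41227993.
Trbv13-2: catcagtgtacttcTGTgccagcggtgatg
Trbv3: gtgtacttcTGTgccagcagcttagccaca
Trbv1: cagaaccttgtacTGCacctgcagtgcaga
Trbv2: ggccacatacttcTGTgccagcagccaaga
Trbv13-1: catctttgtacttcTGTgccagcagtgatg
Trbv15: agctgtgtatctgTGTgccagcagtttagc
Trbv20: cagaggcttatatctcTGTggtgctaggga
Trbv26: agcactgtacctcTGTgccagcagtctgtc
From the cysteine codon on, the segments shown share the letters TGTgccagc, with the exceptions of Trbv1 and Trbv20.

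**Figure D2:**
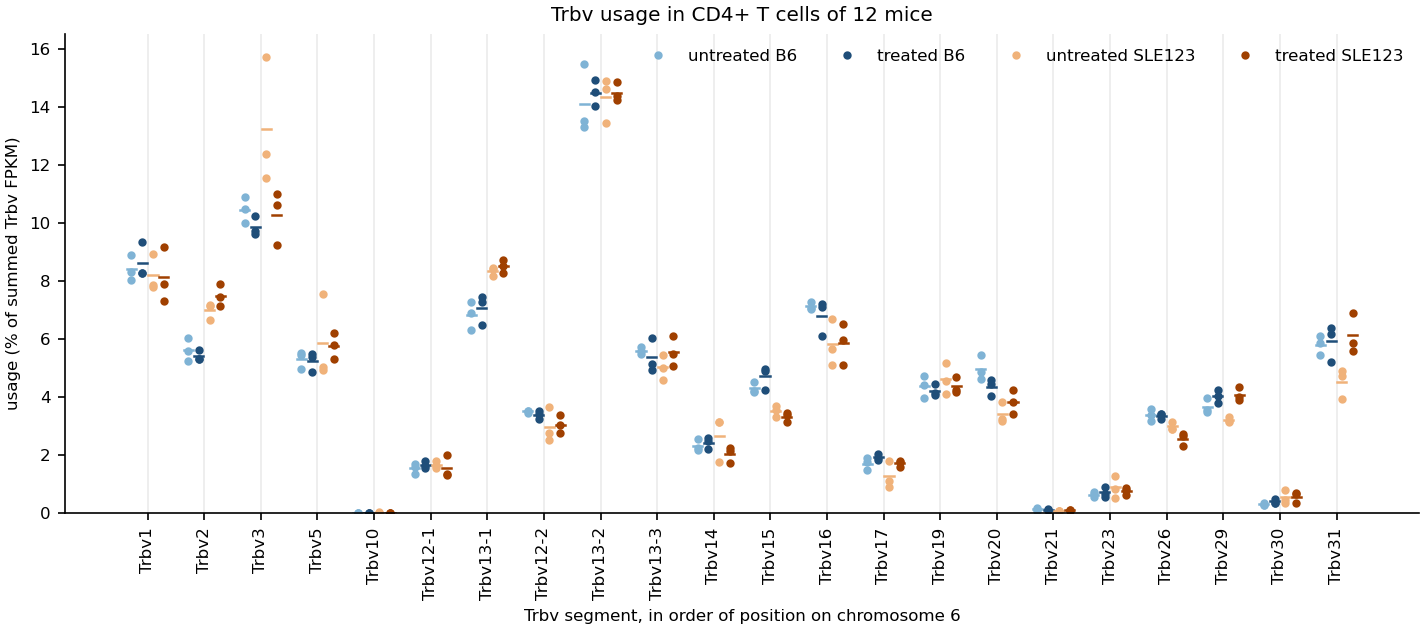
Usage of each Trbv segment as percent of summed Trbv FPKM (vertical axis), in order of position on chromosome 6 (horizontal axis), with 1 point per mouse coloured by group and a line at each group mean. Trbv13-2 (13.3% to 15.5%) and Trbv3 (9.24% to 15.8%) stand highest, and untreated SLE123 replicate 3 gives the top Trbv3 point.

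The alpha chain repertoire was flatter. Trav14n-3 led with a mean usage of 5.04% (4.04% to 5.88%), followed by Trav9-4 (4.03%), Trav9-2 (3.88%), Trav14d-3-dv8 (3.69%), Trav13-1 (3.57%), Trav7-4 (3.38%), Trav4-4-dv10 (3.36%) and Trav3-3 (3.07%). These 8 segments made up 30% of summed Trav FPKM, and 36 Trav segments had a mean usage of at least 1%. Evenness moved little between mice. The effective number of segments, the exponential of the Shannon index, was between 47.9 and 52.7 for Trav and between 15.2 and 16.5 for Trbv. The 46 segments without a suffix gave 67.5% ± 1.15 (SD, n = 3) of summed Trav FPKM in untreated B6, 70.1% ± 1.75 in treated B6, 71.1% ± 1.84 in untreated SLE123 and 70.6% ± 2.04 in treated SLE123. The 32 d copies gave 15.3% ± 0.650, 13.9% ± 0.472, 13.0% ± 0.944 and 12.1% ± 0.336 in the same order of groups, with untreated B6 (14.6% to 15.8%) above every mouse of the other 3 groups (11.8% to 14.3%), and the 25 n copies gave 15.9% to 17.4% on average. The 16 segments listed at 0 are all d or n copies without a unique window. These shares therefore follow how fragments were assigned to copies and were not read as the RNA each block supplies.

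The segments of invariant T cells were low. Trav11, whose chain marks natural killer T cells, had 0 to 0.361 FPKM and 7 fragments over all 12 libraries, and its copy Trav11d had 3 fragments. Neither transcript has a unique 50-base window, so their fragments could not be told from those of other V segments, and no comparison was made. Their ends, with the cysteine codon in capitals, lie at chr14:53519830-53519859 and chr14:52824883-52824912 and are offset by 1 base in the annotation.
Trav11: acactgccacctacatcTGTgtggtgggcg
Trav11d: gacactgccacctacatcTGTgtggtgggc
Trav1, the segment of mucosal-associated invariant T cells, was at 2.22 to 6.38 FPKM without a called change in any comparison. The beta segments that natural killer T cells use most, of the Trbv13 family with Trbv29 and Trbv1, are also common in conventional T cells and were not read as theirs.

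V segment RNA was lower in B6 mice given anti-CD45RB than in untreated B6 mice. Summed Trav FPKM was 688.2, 718.0 and 704.2 in untreated B6 and 545.7, 505.7 and 548.4 in treated B6, a ratio of 0.758 (log2 ratio -0.40 with a pooled SD of 0.0511). Summed Trbv FPKM went from 1461, 1438 and 1489 to 1280, 1213 and 1292, a ratio of 0.863 (log2 ratio -0.21, pooled SD 0.0391). Every treated mouse was below every untreated mouse in both sums. Trac, the alpha constant gene, which is a row of its own, moved in the same direction, from 901.0, 923.4 and 960.6 to 733.9, 728.3 and 740.6 FPKM, a log2 fold change of -0.34 (SE 0.0348, adjusted p = 0.00244, limma with Benjamini-Hochberg adjustment over all 13115 genes tested). The beta constant genes changed less, with log2 fold changes of -0.11 for Trbc1 (adjusted p = 0.0432) and -0.17 for Trbc2 (adjusted p = 0.0228) in the same limma fit. Of the CD3 chains, Cd3g fell by 0.15 on the log2 scale (adjusted p = 0.0367), Cd3e had -0.13 (adjusted p = 0.0545) and Cd3d and Cd247 had 0.01 and 0.04. In all, 4 of 7 constant and CD3 genes were called lower in treated B6 and none higher. Of other T cell genes, Cd5, Cd6 and Cd28 were called lower with log2 fold changes of -0.16, -0.21 and -0.23 (limma adjusted p = 0.0476, 0.0341 and 0.0287). Cd4 (-0.11), Lck (-0.06), Thy1 (-0.04) and Cd2 (0.02) did not pass the test.

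Among single segments, 27 of 94 were called lower in treated B6 (20 Trav and 7 Trbv) and 1 was called higher, where 6.12% of all genes tested were lower and 8.74% were higher. The median log2 fold change was -0.36 over the Trav and -0.19 over the Trbv segments tested, against -0.0024 over all genes, and 82 of the 94 values were negative. The FPKM of the groups did not overlap, with treated below untreated, for 43 of the 94 segments, against 18.6% of all genes. Trav9d-1 was at 5.58, 3.74 and 4.34 FPKM in untreated and 2.33, 2.34 and 2.01 FPKM in treated B6 (log2 fold change -0.77, SE 0.129, limma adjusted p = 0.0132). Trav7n-4 went from 10.9, 11.3 and 9.11 to 5.62, 6.63 and 5.93 FPKM (-0.70, SE 0.0954, limma adjusted p = 0.00662). In both, each treated mouse lay below each untreated one. Trav9d-1 and Trav7n-4 had 31.9% and 50.7% unique 50-base windows, and Trav9d-1 rested on 14 to 40 fragments per B6 mouse. The Trav9 members together averaged 13.66% of summed Trav FPKM in untreated and 13.63% in treated B6. Next in size came Trav14d-3-dv8 (-0.68), Trav14d-1 (-0.65) and Trav16d-dv11 (-0.64), with 61.2%, 0% and 37.2% unique windows. The 7 Trbv segments called lower were Trbv2, Trbv3, Trbv5, Trbv12-2, Trbv16, Trbv19 and Trbv20. Leaving out untreated B6 replicate 4 reduced the calls to 8, with replicate 3 left out there were 16, with replicate 5 left out 18, and without treated B6 replicate 3 there were 16. Of all genes these fits called 675, 848, 1350 and 1109, against 1948 in the main fit. B cell markers (5 of 6 called higher), macrophage and neutrophil markers (4 of 5), plasma cell markers (2 of 4) and gamma delta T cell genes (3 of 3) rose in the same mice, and their part in the fall was not tested.

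**Figure D3:**
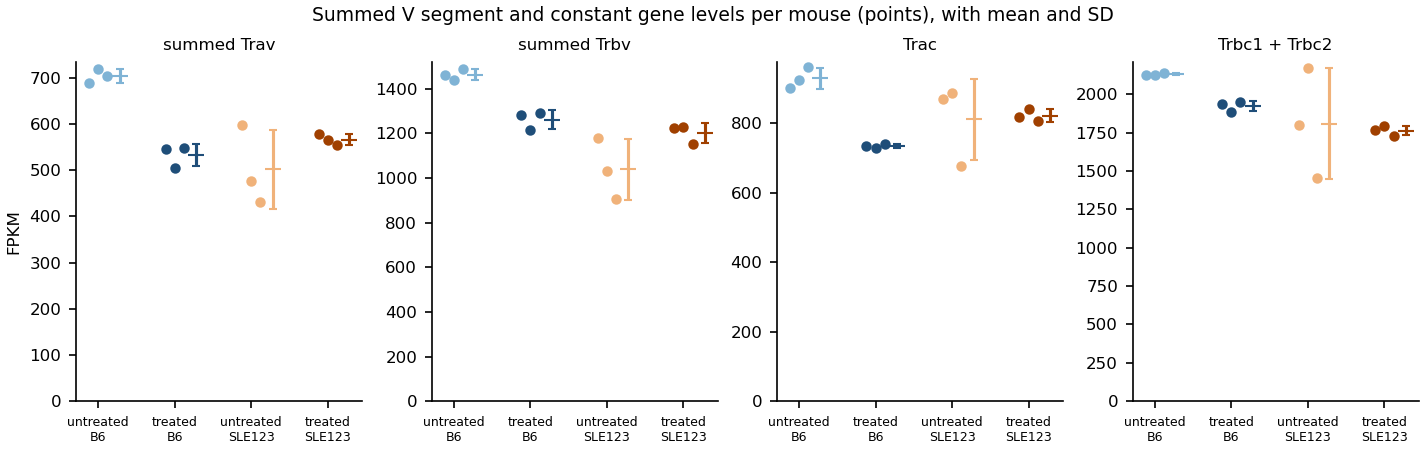
Summed Trav, summed Trbv, Trac, and summed Trbc1 and Trbc2 FPKM (vertical axes, from 0) in the 4 groups, with 1 point per mouse and bars for the mean and SD (n = 3). In B6 the treated points lie below the untreated ones in all panels, whereas in SLE123 the groups overlap in each panel and the untreated mice spread more widely (Trav 431.2 to 597.1) than the treated ones (554.0 to 577.5).

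The fall was shared by many segments, and few changed their share. With V segments entered as usage in the same limma fit, 3 of 94 were called in treated against untreated B6, where 14.5% of all genes were. Trav13-4-dv7, which the delta chain can also use, was the 1 segment called higher on both scales. Its usage was 0.751%, 0.842% and 0.781% in untreated B6, 1.51%, 1.29% and 1.61% in treated B6, 0.713%, 0.995% and 0.613% in untreated SLE123 and 1.23%, 1.42% and 1.02% in treated SLE123. In treated B6 all values lay above those of untreated B6 (log2 fold change of usage 0.77, SE 0.0896, limma adjusted p = 0.00384), and in SLE123 the treated mice also lay above the untreated ones without passing the test. The usage call in B6 held in all 6 fits that left out 1 mouse, whereas the FPKM call (log2 fold change 0.43, limma adjusted p = 0.0479) was lost in 11 of 16 alternatives, among them 5 of those 6. Only 27.1% of the 50-base windows of Trav13-4-dv7 were unique. The 11 Trav13 members together took 7.72%, 8.12% and 7.27% in untreated B6 and 8.32%, 8.04% and 6.89% in treated B6, with overlap. The division of fragments among these copies was not tested. Trav21-dv12 rose from 1.33%, 1.33% and 1.28% to 1.66%, 1.85% and 2.11% of usage in B6 (log2 fold change 0.46, SE 0.0860, limma adjusted p = 0.0186; called in 2 of 6 fits without 1 mouse). Trav14d-1 fell from 3.74%, 3.59% and 3.18% to 2.87%, 2.71% and 3.01% (-0.27, SE 0.0698, limma adjusted p = 0.0447; called in 1 of 6 such fits). Both sets of groups were free of overlap. Shifts in share without overlap that did not pass the test included those of Trav14d-3-dv8 (4.51% to 3.68%), Trav14n-3 (5.58% to 4.77%), Trav6-5 (1.96% to 2.63%, limma adjusted p = 0.0508) and Trbv20 (4.98% to 4.35%).

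No V segment passed the test between treated and untreated SLE123 mice, on FPKM or as usage, where 0.0381% of all genes did on either scale. At an unadjusted p under 0.05 in limma, 17 of 94 segments passed on FPKM and 14 as usage, where 1369 and 1370 of all 13115 genes did. Voom on recovered fragments also called 0 segments, and 3 of all genes. Summed Trav FPKM was 597.1, 476.2 and 431.2 in untreated and 577.5, 564.9 and 554.0 in treated SLE123 (log2 ratio 0.17, pooled SD 0.171), and summed Trbv FPKM was 1177, 1033 and 906.1 against 1225, 1229 and 1150 (0.21, pooled SD 0.139). The Trav sums overlapped, with untreated replicate 1 above all treated mice, and the Trbv sums overlapped as well. The median log2 fold change was 0.11 over Trav and 0.23 over Trbv segments, against 0.04 over all genes, and 16 of 94 segments had treated above untreated values without overlap, where 13.7% of all genes did. Summed Trav FPKM had an SD of 85.8 among the untreated SLE123 mice, where it was 11.8 to 23.9 in the other groups, and summed Trbv FPKM had an SD of 136.0 against 25.5 to 44.5 (n = 3 each). Without untreated replicate 1 the Trav log2 ratio was 0.318, and without untreated replicate 3 the Trav and Trbv ratios were 0.0756 and 0.121.

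Shares without overlap in SLE123 included Trbv3, the segment of largest difference, at 11.6%, 12.4% and 15.8% in untreated and 9.24%, 10.6% and 11% in treated mice. Trbv31 went the other way, from 4.88%, 4.71% and 3.94% to 6.91%, 5.59% and 5.86%. Trbv29 averaged 3.19% ± 0.103 in untreated and 4.07% ± 0.239 in treated mice (SD, n = 3). Among Trav segments the differences were largest for Trav9-4 (3.75% to 5.15%), Trav13-1 (4.07% to 3.15%) and Trav3-3 (2.81% to 3.59%). None of these passed the test, and they are given as values.

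The response to anti-CD45RB differed between the strains for 9 of 94 segments by the interaction in limma over the 12 mice, all with the SLE123 effect above the B6 effect, where 1.27% of all genes were called in that direction. The 9 were Trbv2, Trbv20, Trbv29, Trav3-3, Trav6n-5, Trav7n-4, Trav9-4, Trav13n-3 and Trav14d-1. Of these, Trav6n-5, Trav13n-3 and Trav14d-1 had 15.9%, 17.4% and 0% unique 50-base windows. Trav3-3 was at 20.5, 21.7 and 21.7 in untreated B6, 15.9, 14.5 and 15.4 in treated B6, 16.2, 12.3 and 13.6 in untreated SLE123 and 22.4, 20.2 and 18.4 in treated SLE123 FPKM. It fell in every treated B6 mouse below the untreated ones and lay higher in every treated SLE123 mouse than in the untreated ones, a difference of effects of 0.97 on the log2 scale (SE 0.135, limma adjusted p = 0.00401). Trbv20 was at 67.5, 78.2 and 72.5 in untreated B6, 51.5, 53.8 and 59.3 in treated B6, 37.2, 33.5 and 34.6 in untreated SLE123 and 41.7, 52.0 and 43.8 in treated SLE123 FPKM. The B6 effect was -0.40 (limma adjusted p = 0.0140), the treated SLE123 mice lay above the untreated ones, and the effects differed by 0.77 (limma adjusted p = 0.00870). The median difference of effects was 0.48 over the Trav and 0.40 over the Trbv segments tested, against 0.0425 over all genes. Without untreated SLE123 replicate 1 the count was 32. In that fit 1981 of all genes were called in the same direction, against 166 in the main fit. As usage the interaction called 1 segment, Trav14d-1 (0.51, SE 0.105, limma adjusted p = 0.0272), where 3.55% of all genes were called, and this call held in 6 of 12 fits that left out 1 mouse.

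Untreated SLE123 mice had less V segment RNA than untreated B6 mice. The ratio of summed levels was 0.713 for Trav (log2 ratio -0.49, pooled SD 0.172) and 0.710 for Trbv (-0.49, pooled SD 0.134), and each SLE123 mouse was below each B6 mouse. On FPKM, 43 of 94 segments were called lower and 0 higher, where 20.1% of all genes were lower and 22.8% higher. Without untreated B6 replicate 4 the count was 28, where 1372 of all genes were called lower, against 2631 in the main fit. In the treated mice the sums were close, with ratios of 1.06 for Trav (log2 ratio 0.0846, or 0.0478 without treated B6 replicate 3) and 0.952 for Trbv (-0.0709, or -0.0406 without treated SLE123 replicate 3), and 9 segments were called higher and 12 lower, where 29.6% of all genes were higher and 22.5% lower. Trac, at 868.2, 887.6 and 675.9 FPKM against 901.0 to 960.6 FPKM in B6, was not called in the untreated mice, and summed Trav as percent of Trac was 75.8 ± 2.30 in untreated B6, 72.6 ± 2.78 in treated B6, 62.1 ± 7.69 in untreated SLE123 and 68.8 ± 1.8 in treated SLE123 (SD, n = 3). Plasma cell markers, at 55.05 to 74.0 summed FPKM in untreated B6 and 1934 to 5009 in untreated SLE123, were higher in the same libraries (4 of 4 called), as were 6 of 6 B cell markers. Their part in the lower V segment levels was not tested, and the strains are compared below by usage.

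As usage, 16 segments were called between untreated SLE123 and untreated B6 mice, 5 higher and 11 lower (22.8% and 19.8% of all genes in the same fit). Between treated SLE123 and treated B6 mice 18 were called, 8 higher and 10 lower (29.6% and 22.5% of all genes). Both shares lay near or below the background, so the number of segments called was no result about V segments. The untreated and the treated mice have no animal in common, which allows the same segment to be compared in both. Of the 94 segments tested, 61 had the same sign in both states (64.9%). The 7 called in both states were 43.8% of the untreated and 38.9% of the treated calls, and all 7 had the same sign. Across segments the log2 fold changes had a Spearman rho of 0.415 (n = 94), 0.380 among Trav (n = 73) and 0.658 among Trbv segments (n = 21), given as descriptions since shares within a mouse depend on each other. Without untreated B6 replicate 3, 4 or 5 the untreated calls numbered 7, 7 and 8, respectively. Of all genes those fits called 3684, 3648 and 3906, against 5588 in the main usage fit.

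**Figure D4:**
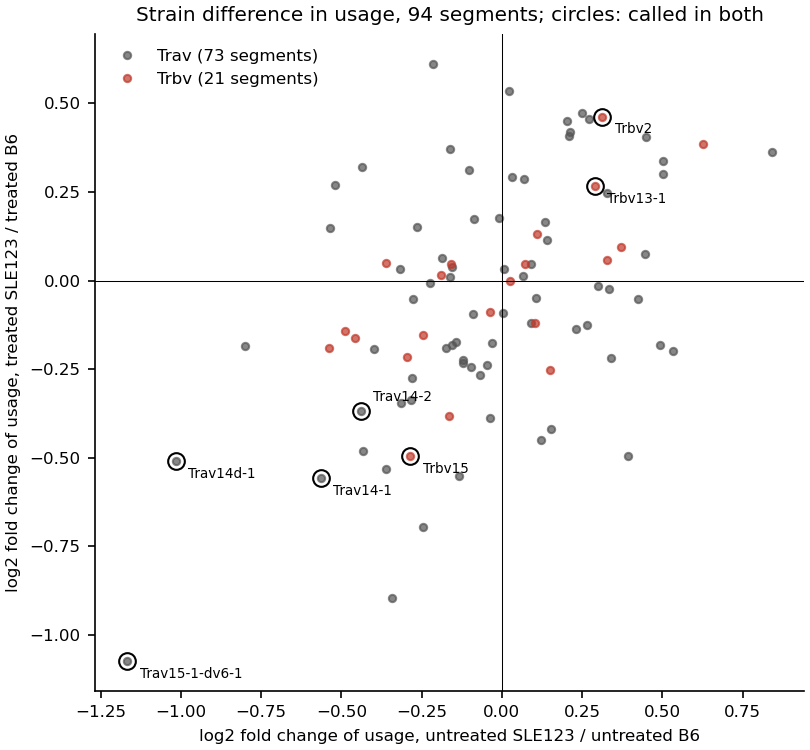
Log2 fold change of usage, SLE123 over B6, in untreated mice (horizontal axis) and in treated mice (vertical axis), 1 point per tested V segment (n = 94), with the 7 segments called in both states named. The named points lie in the lower left (5 segments) and upper right (2 segments) corners, with Trav15-1-dv6-1 farthest out at -1.17 and -1.07.

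Trav15-1-dv6-1 differed most between the strains. This segment belongs to a family that the delta chain also uses, and 92.9% of its 50-base windows were unique. The end of it and of its relative Trav15-2-dv6-2, with the cysteine codon in capitals, lie at chr14:53560218-53560247 and chr14:53649965-53649994.
Trav15-1-dv6-1: gaaagtatttcTGTgctctctgggagctgg
Trav15-2-dv6-2: ggacgtacttcTGCgctctctcggaactga
Usage of Trav15-1-dv6-1 was 1.26%, 1.19% and 0.860% in untreated B6, 1.70%, 1.42% and 1.65% in treated B6, 0.494%, 0.419% and 0.281% in untreated SLE123 and 0.589%, 0.727% and 0.677% in treated SLE123. All 6 SLE123 mice lay below all 6 B6 mice. The log2 fold change of usage was -1.17 in untreated (SE 0.184, limma adjusted p = 0.00251) and -1.07 in treated mice (SE 0.0924, limma adjusted p = 0.000174), and each call held in all 6 fits that left out 1 mouse. Recovered fragments behind these shares numbered 34 to 54 in B6 and 10 to 27 in SLE123 mice. Trav15-2-dv6-2 was called lower in treated mice (-0.89, limma adjusted p = 0.00911) and overlapped in untreated ones (0.204% to 0.356% against 0.251% to 0.583%). The 4 Trav15 members together took 1.24% to 2.92% of summed Trav FPKM in the B6 mice and 0.703% to 1.11% in the SLE123 mice, without overlap. Genes of gamma delta T cells lay in the same order in treated mice, where 3 of 3 tested were called lower in SLE123, while 1 of 3 was in untreated mice, with summed FPKM of 39.44 to 51.25 in untreated B6, 77.1 to 86.62 in treated B6, 30.27 to 36.44 in untreated SLE123 and 43.28 to 57.34 in treated SLE123. The 3 genes tested were the gamma constant genes Tcrg-C1, Tcrg-C2 and Tcrg-C4. Of 5 gamma delta genes listed 4 were found, and the delta constant gene Trdc was not, so delta chain RNA was not measured by it. No gamma delta gene found was at 0 in all mice, and the part of these cells was not tested.

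Trav14d-1, Trav14-1 and Trav14-2 were lower in SLE123 mice in both states. Trav14d-1, whose row has no unique window, had usage of 3.74%, 3.59% and 3.18% in untreated B6, 2.87%, 2.71% and 3.01% in treated B6, 1.67%, 1.57% and 1.68% in untreated SLE123 and 2.06%, 2.02% and 1.81% in treated SLE123. Again no SLE123 mouse reached the lowest B6 mouse (log2 fold change -1.02 untreated and -0.51 treated, limma adjusted p = 0.000158 and 0.000808). Trav14-1 differed by -0.56 in both states (limma adjusted p = 0.0235 and 0.0173), held in 3 and 4 of 6 fits without 1 mouse, and had no overlap within either state. Trav14-2 was lower by the same test (-0.44 and -0.37, limma adjusted p = 0.00878 and 0.0415), with the call held in 6 and 2 of 6 fits. The 9 Trav14 members summed to 21.1%, 22.6% and 22.1% of summed Trav FPKM in untreated B6, 21.02%, 18.1% and 19.3% in treated B6, 17.6%, 16.7% and 14.4% in untreated SLE123 and 17.0%, 16.2% and 15.8% in treated SLE123. Since a sum over the family is less affected by how fragments were divided among its copies, it is given beside the single rows, and within each state the strains did not overlap. The 8 Trav4 members took a larger share in SLE123, 8.03% to 10.2% against 4.78% to 6.56% in untreated and 7.52% to 8.30% against 5.32% to 7.09% in treated mice.

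At the beta locus Trbv2, Trbv13-1 and Trbv15 were called in both states. In fits that left out 1 mouse the untreated calls held in 4, 3 and 3 of 6, respectively, and the treated calls in 6 of 6 for each. Usage of Trbv2 was 5.25%, 5.58% and 6.03% in untreated B6, 5.31%, 5.62% and 5.31% in treated B6, 7.14%, 6.66% and 7.17% in untreated SLE123 and 7.15%, 7.44% and 7.88% in treated SLE123. All 6 SLE123 mice lay above all 6 B6 mice (log2 fold change 0.31 untreated and 0.46 treated, limma adjusted p = 0.02 and 0.000339). Usage of Trbv13-1 was 6.90%, 7.28% and 6.31% in untreated B6, 7.45%, 6.48% and 7.27% in treated B6, 8.42%, 8.16% and 8.46% in untreated SLE123 and 8.26%, 8.73% and 8.52% in treated SLE123. The SLE123 mice lay within a narrow range above every B6 mouse (0.29 and 0.27, limma adjusted p = 0.0255 and 0.00820). Usage of Trbv15 was 4.50%, 4.21% and 4.17% in untreated B6, 4.25%, 4.91% and 4.96% in treated B6, 3.67%, 3.31% and 3.54% in untreated SLE123 and 3.12%, 3.38% and 3.43% in treated SLE123. It was lower in all SLE123 mice than in any B6 mouse (-0.29 and -0.50, limma adjusted p = 0.0199 and 0.00125). Of the same family, Trbv13-2 was not called in either state, at 14.1% ± 1.199, 14.5% ± 0.452, 14.3% ± 0.769 and 14.5% ± 0.322 in the 4 groups in the order used above. These 3 beta segments have 100% unique windows, so the division of fragments between copies did not enter.

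**Figure D5:**
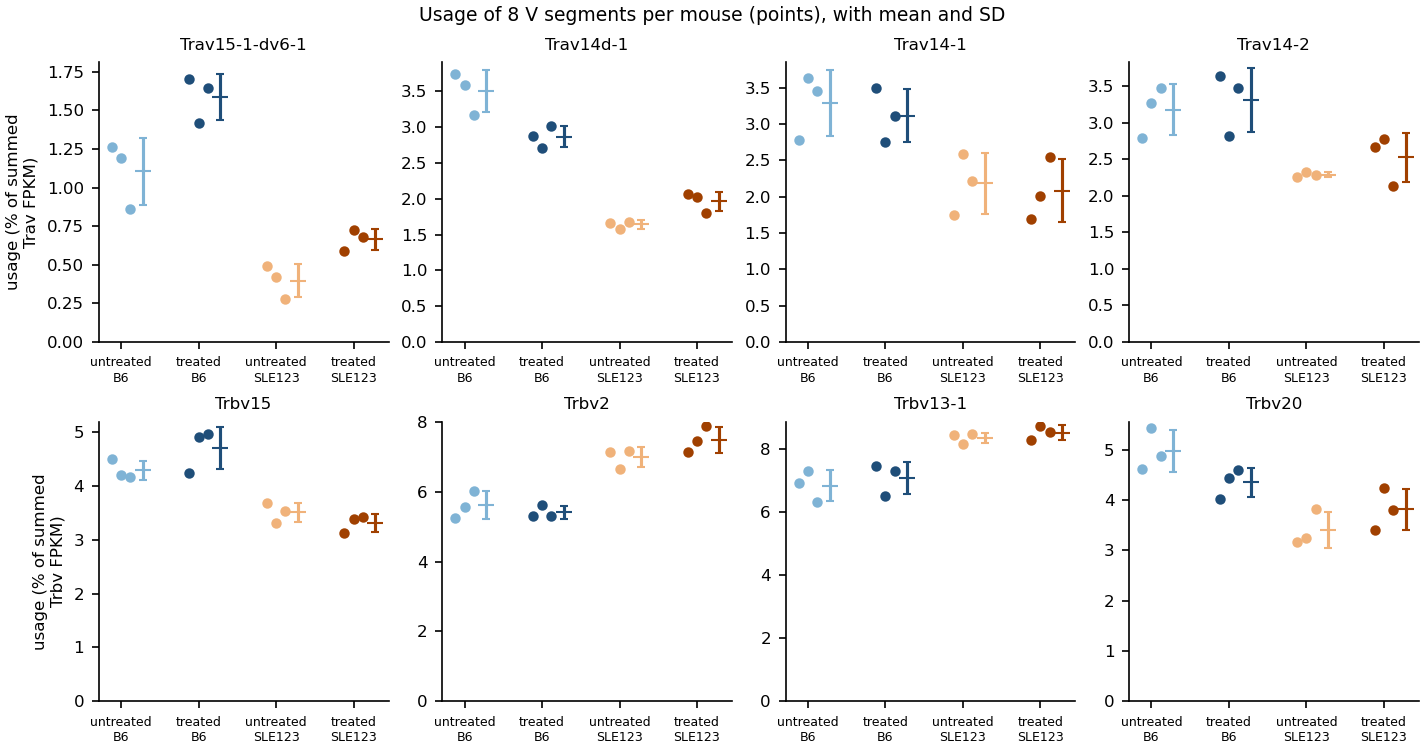
Usage of 8 V segments (vertical axes, percent of summed Trav or Trbv FPKM, each from 0) in the 4 groups, with 1 point per mouse and bars for the mean and SD (n = 3). For Trav15-1-dv6-1 the B6 mice lie at 0.860% to 1.70% and the SLE123 mice at 0.281% to 0.727%, and for Trbv2 the SLE123 mice lie above the B6 mice.

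Other segments passed in 1 state only, and the difference between states was not called for them in the usage interaction. In untreated mice Trbv20 was lower in SLE123 at 3.16%, 3.25% and 3.82% against 4.62%, 5.44% and 4.87% (log2 fold change -0.54, limma adjusted p = 0.00537), and in treated mice at 3.40%, 4.23% and 3.81% against 4.02%, 4.43% and 4.59% it overlapped. Trbv31 and Trav6n-5 (-0.36 and -0.80) were also lower in untreated SLE123. Trav6n-5 had 15.9% unique 50-base windows, and the 15 Trav6 members together averaged 8.72% in untreated B6 and 8.82% in untreated SLE123. In treated mice Trbv26 was lower in SLE123 at 2.30%, 2.72% and 2.66% against 3.40%, 3.25% and 3.41% (-0.38, limma adjusted p = 0.00325), as was Trav6-5 at 1.68%, 1.44% and 1.53% against 2.93%, 2.79% and 2.18% (-0.70, limma adjusted p = 0.00224). Higher there were Trav9-4 (0.54, limma adjusted p = 0.00647), Trav7-4 (0.47, limma adjusted p = 0.00602) and Trav3-3 (0.31, limma adjusted p = 0.00521), the first at 4.78%, 5.08% and 5.60% against 3.12%, 3.28% and 4.16%. The treated groups did not overlap for any of these 5 segments. Trav7-4, Trav6-5 and Trav9-4 had 24.9%, 35.8% and 44.2% unique 50-base windows. As family sums, treated SLE123 and treated B6 mice overlapped for Trav9 (14.57% to 16.84% against 12.01% to 14.94%) and Trav7 (11.15% to 12.55% against 10.1% to 11.2%). They did not overlap for Trav6 (8.159% to 8.786% against 8.874% to 9.461%) and Trav3 (4.339% to 5.237% against 3.776% to 4.247%). The division of fragments among the copies of these families was not tested.

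Single mice stood apart in their share of some segments. Untreated SLE123 replicate 3 had 15.8% Trbv3, where the other 11 mice had 9.24% to 12.4%, resting on 1171 of 7307 Trbv fragments (16.0%, 95% Wilson interval 15.2 to 16.9%, counting error only). The same mouse had 6.28% Trav4-3 against 1.65% to 3.69% in the others (212 of 3796 Trav fragments, 5.58%, 4.90 to 6.36%) and 3.51% Trav6-7-dv9 against 1.28% to 2.44%. It was also the library with the most B cell RNA. Untreated SLE123 replicate 1 had 7.55% Trbv5 against 4.86% to 6.19% (501 of 6624 fragments) and 2.21% Trav7d-4 against 0.939% to 1.69%, and treated SLE123 replicate 3 had 1.96% Trav17 against 0.872% to 1.51%. Trbv14 was high in untreated SLE123 replicates 1 and 2, at 3.12% in each. These were among the 5 pairs of segment and mouse with the highest ratio to the other mice at each locus, for segments with a mean usage of at least 1%, which also held Trav14d-1 in untreated B6 replicate 3 (3.74%) and Trbv20 in untreated B6 replicate 4 (5.44%).

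The spread between mice of a group went the same way. The chi-square per degree of freedom of segment fragments between the 3 mice of a group, which is near 1 when mice differ by counting error alone, was 1.91 in untreated B6, 1.67 in treated B6, 7.22 in untreated SLE123 and 3.15 in treated SLE123 for Trbv. For Trav the values were 1.22, 1.59, 3.53 and 2.24. SLE123 mice thus differed more among themselves in segment shares than B6 mice did, most of all the untreated ones. Over all genes the chi-square per gene was 50.5 to 86.3 between untreated SLE123 mice and 3.42 to 6.33 between B6 mice of a group. Between treated SLE123 mice it was 23.9 and 26 for the pairs with replicate 1 and 2.55 for replicates 2 and 3, below every B6 pair.

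Of the genes that recombine V segments, Rag1 and Rag2 were at or near 0 in every library (at most 0.0384 and 0.0159 FPKM). Dntt, which adds untemplated bases at V junctions in the thymus, was at 4.98, 6.65 and 5.96 FPKM in untreated B6, 3.98, 5.22 and 3.19 FPKM in treated B6, 1.11, 1.01 and 0.974 FPKM in untreated SLE123 and 0.726, 0.574 and 0.410 FPKM in treated SLE123. Every SLE123 mouse lay below every B6 mouse (log2 fold changes of -1.75 and -1.69, limma adjusted p = 5.9e-05 and 0.000236). Among T cell states, 5 of 5 Tfh genes and 3 of 4 regulatory T cell genes were called higher in SLE123 in both states, with summed Tfh FPKM of 44.83 to 62.23 in B6 and 251.6 to 341.3 in SLE123 mice. The part of these T cell subsets in the usage differences was not tested. Along the Trav locus the log2 fold change of usage between strains bore little relation to position, with a Spearman rho over 73 segments of -0.133 in untreated and 0.011 in treated mice.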

How the data were processed

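The authors deposited 1 table of FPKM per gene and library. Per the submitters' processing notes the tools were CASAVA 1.8 and STAR with mm10, from poly-A selected RNA. The counting program and annotation are not given in the sources used here. Symbols and transcripts came from GENCODE M21 (GRCm38), which held 97.8% of the gene identifiers; 38 of its 163 Trav and Trbv symbols have no row and were not analysed here. Groups came from the labels. log2(FPKM + 1) was tested with limma 3.58.1 (R 4.3.3), trend fitted, on 13115 genes (mean over the 12 mice not under 0.5 FPKM), with Benjamini-Hochberg adjustment and a threshold of 0.05, in fits of 6 mice (12 for the interaction), so fold changes of low genes are understated. For usage, the rows of V segments were replaced by log2(FPKM share, scaled to the locus mean, + 1), and all genes were refitted. Whole fragments were recovered from the FPKM steps (100% of 23230 genes whole within 0.02) for voom and counting intervals. Scripts were tested on simulated data. Comparisons share groups, and p-values measure the spread between these libraries. The members, gene lists and tests were chosen with earlier results of these data known. Segments were named by usage rank, size of called change, largest single-mouse ratio, largest non-overlapping difference, or a known role in invariant T cells. The 7 segments called in both states and family sums were singled out after their values were seen.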

Additional observations from a re-analysis of the deposited data

Results flagged for a closer look

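For 9 segments the effect of anti-CD45RB differed between the strains by the interaction in limma, with the effect in SLE123 above that in B6. On the log2 FPKM scale the differences were 1.08 for Trav6n-5 (adjusted p = 0.0150), 1.07 for Trav9-4 (adjusted p = 0.00930), 1.05 for Trav14d-1 (adjusted p = 0.00617) and 0.97 for Trav3-3 (adjusted p = 0.00401). They were 0.89 for Trav13n-3, 0.87 for Trav7n-4, 0.77 for Trbv20, 0.63 for Trbv29 and 0.58 for Trbv2. With 15.9%, 17.4% and 0% unique 50-base windows, the rows of Trav6n-5, Trav13n-3 and Trav14d-1 could hardly be told from those of other copies. As usage the effects differed for Trav14d-1, by 0.51.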

How the results depend on the processing

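Direction was checked for 26 named FPKM calls and 38 usage calls of the main fits, and none changed it in any alternative. On FPKM 356 of 436 alternatives kept their side of the threshold and 80 lost the call, and as usage 267 of 347 kept it and 80 lost it. Other named values were not checked in this way. Settings for usage were chosen after seeing the data. Of the 28 calls in treated against untreated B6, 9 remained in number without the filter, 3 as usage, 18 with voom, 9 with all 12 mice in 1 fit and 0 with the replicate block. Over all genes these fits called 1134, 1907, 2710, 815 and 0, in the same order, against 1948 in the main fit. Since the block called 0 genes of any kind, its count cannot speak for V segments. In SLE123 1 segment was called with all 12 mice in 1 fit, among 53 of all genes. The 43 calls between untreated strains became 72 on TPM and 16 as usage, and the 21 between treated strains became 12 without the filter and, on TPM, 5 higher and 21 lower in place of 9 and 12. On TPM 7888 of all genes were called between untreated strains, against 5621. Between treated strains 2442 were higher and 4480 lower on TPM, against 3881 and 2955. The 9 interaction calls became 1 as usage and 1 with the replicate block, where 465 and 34 of all genes were called, against 478. The 3 usage calls in B6 became 1 with all 12 mice in 1 fit, where 805 of all genes were called, against 1907. On TPM the median log2 fold change of all genes was 0.216 in SLE123 treatment, -0.379 between untreated and -0.135 between treated strains. On FPKM these medians were 0.0379, -0.0255 and 0.0284. There the summed Trav log2 ratios became 0.345, -0.848 and -0.0939 (the last reversed from 0.0846), and the Trbv ones 0.386, -0.858 and -0.249. Leaving out 1 mouse gave 8 to 21 FPKM calls in B6, 0 in SLE123, 28 to 55 between untreated and 16 to 25 between treated strains and 6 to 32 for the interaction. Over all genes the same fits called 675 to 1393, 1 to 7, 3672 to 6469, 5524 to 6685 and 205 to 2917. As usage, leaving out 1 mouse gave 1 to 5 (1 without untreated B6 replicate 3 or 4, 5 without treated B6 replicate 5), 0, 7 to 24, 14 to 23 and 0 to 5. Over all genes these usage fits called 660 to 1370, 1 to 7, 3648 to 6430, 5526 to 6684 and 192 to 2881. Leaving out 1 mouse moved the summed Trav ratio between 0.0756 and 0.318 in SLE123 treatment, -0.633 and -0.391 between untreated and 0.0478 and 0.105 between treated strains, and the summed Trbv ratio between 0.121 and 0.309, -0.593 and -0.405, and -0.0986 and -0.0406. The replicate numbers did not pair the mice (correlations of -0.161 to 0.266 between same-numbered mice), and the block could not be used between untreated strains, which share 1 number. Depth (median 36 fragments per tested Trav segment and mouse) limits single Trav shares.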

Other observations

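Summed Trbv FPKM as percent of summed Trbc1 and Trbc2 averaged 68.6 in untreated B6, 65.5 in treated B6, 58.4 ± 9.55 in untreated SLE123 and 68.1 in treated SLE123 (n = 3). Genes of natural killer and mucosal-associated invariant T cells summed to 54.15 to 60.75 FPKM in untreated B6, 69.72 to 92.29 in treated B6, 27.69 to 30.35 in untreated SLE123 and 40.84 to 45.06 in treated SLE123. The SLE123 mice lay below the B6 mice in each state, and 2 of the 4 genes were called lower and 1 higher in SLE123 in both states.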
